A study of Rattus norvegicus with 20 samples.

Results

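The liver takes up glucose after a meal, traps it as glucose 6-phosphate and passes it through glycolysis, and the genes described here encode the liver's own versions of those steps. Of 8 gene names chosen for hepatic glucose sensing and glycolysis, 7 had an entry among the 32883 genes of the table: Gckr, Pklr, Slc2a2, Pfkfb1, Pfkl, Khk and Txnip. Each was taken by its gene name, from the entry with the highest mean where a name occurred more than once. Mlxipl was not analysed here. All 7 were among the 11869 genes that passed the filter on low values, for which 5 or more libraries had to reach 0.5 scaled TPM.

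RNA was sequenced from livers of 20 male rats, with 5 libraries in each of 4 groups. CON rats were given only the vehicle, CMC-Na at 0.5%, and BGZ_L rats a powder called BGZ_L at 0.9 g/kg. The title of the series links this powder to Psoraleae Fructus, the dried fruit of Psoralea corylifolia. KYDS rats received the glucocorticoid hydrocortisone at 25 mg/kg, as a model of the kidney-yang deficiency syndrome of Chinese medicine, and KYDS+BGZ_L rats received both agents at these doses. The labels give no strain, age, feeding state or length of dosing. The libraries are of whole liver, so fewer cells of a type and less RNA per cell cannot be told apart.

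In hepatocytes, glucose enters through the low-affinity transporter GLUT2 (Slc2a2) and is then phosphorylated. The product of Gckr is a regulatory protein that restrains this phosphorylation when glucose is low. Liver phosphofructokinase (Pfkl) and the bifunctional enzyme that sets its activator fructose 2,6-bisphosphate (Pfkfb1) control the middle of glycolysis, and liver pyruvate kinase (Pklr) its last step. Ketohexokinase (Khk) opens the fructose route. Txnip, which restrains glucose uptake, and Pklr are classical targets of the glucose-responsive factor ChREBP, which Mlxipl encodes.

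The levels below are TPM, a transcript abundance corrected for gene length, after scaling between libraries. The deposited values sum to between 914342.78 and 983962.23 per library, and the read depth behind them is unknown. In many libraries much of the signal came from 13 mitochondrially encoded genes, whose share ranged from 19.2% to 90.1%. The mean share was 75.1% in CON, 67.3% in BGZ_L, 42.4% in KYDS and 48.9% in KYDS+BGZ_L libraries. The scaling factors had means of 0.774, 0.785, 1.72 and 1.29 in the same order, and the lowest were 0.231 in CON 2 and 0.345 in BGZ_L 3. The label of liver was checked against hepatocyte genes: 7 of 8 listed markers had an entry and each had a mean above 1 scaled TPM. Their summed level ranged from 5050 to 9062 scaled TPM in CON, 5113 to 5865 in BGZ_L, 6227 to 62367 in KYDS and 8825 to 44159 in KYDS+BGZ_L. The means were 6747, 5424, 26008 and 25310 in this order, so the mean sum was higher in both hydrocortisone groups, although KYDS overlapped CON. Alb had the largest part of the sum, with a mean of 7852 over all libraries, and the sum was not tested.

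The promoters of the 2 members that rose most, Gckr and Pklr, are shown because their transcripts carry the main difference. Each is 300 bases from RefSeq (build GRCr8), from 250 before to 50 after the annotated start, printed 5′ to 3′ on the gene's strand. The window of Gckr lies at chr6:30795578-30795877 on the minus strand, and capitals mark TGTTCT, one arm of the element that the glucocorticoid receptor is known to bind. That of Pklr lies at chr2:176841014-176841313 on the plus strand. Capitals mark the arms CACGNG and CNCGTG (N is any base) with 5 bases between them. This is a pair of E-box-like arms, the kind of element that ChREBP is known to bind.
Gckr: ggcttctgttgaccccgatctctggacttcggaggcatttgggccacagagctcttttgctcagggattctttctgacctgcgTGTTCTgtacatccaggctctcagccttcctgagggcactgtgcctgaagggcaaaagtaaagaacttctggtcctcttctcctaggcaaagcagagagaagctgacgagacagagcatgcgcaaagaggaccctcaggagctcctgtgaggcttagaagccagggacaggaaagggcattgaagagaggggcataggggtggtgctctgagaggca
Pklr: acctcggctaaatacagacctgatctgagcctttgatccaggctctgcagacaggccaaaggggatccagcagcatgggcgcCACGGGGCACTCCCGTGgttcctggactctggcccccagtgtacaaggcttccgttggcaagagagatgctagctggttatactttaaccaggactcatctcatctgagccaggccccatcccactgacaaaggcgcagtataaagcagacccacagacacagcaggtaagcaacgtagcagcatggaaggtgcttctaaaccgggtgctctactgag

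The TGTTCT arm in the Gckr window spans bases -167 to -162 from the start, and the Slc2a2 window holds one at -153 to -148. Searched on both strands, TGTTCT occurs in 20.7% of 33469 promoter windows of this length, so a match is common. The paired arms of Pklr span bases -168 to -152 and occur in 11 windows (0.0329%). Promoters of 7 of the 8 names were in the table, and none of the 7 held the E-box CACGTG (6.42% of all windows) or the HNF4 site CAAAGTCCA (0.391%). The longer elements were searched only in a strict form, with Y for C or T and R for A or G. None of the 7 held CAYGYG and CRCRTG 5 bases apart, for the carbohydrate response element (0.0299%). AGAACA and TGTTCT 3 bases apart, for the full glucocorticoid response element (0.0149%), were also not found. Nor were GTTAAT and ATTAAC 1 base apart, for the HNF1 site (0.00299%). Apart from the paired arms of Pklr, other forms were not searched, so these results do not show that the elements are absent. The E-box can overlap the paired arms, and TGTTCT is part of the full glucocorticoid element. The letters of the motifs were settled with these windows in view, and the pair marked in Pklr was added after its window was seen. The matches are therefore descriptions of sequence only.

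KYDS against CON asks what hydrocortisone alone changed. Of the 7 genes, Gckr, Pklr and Khk were higher in KYDS, Pfkfb1 was lower, and Slc2a2, Pfkl and Txnip did not pass the test. Over all genes tested, 3.25% were higher and 3.02% lower in this comparison. The median log2 fold change was 0.48 over the 7 genes and 0.05 over all genes. The test was limma on log2 of the scaled TPM plus 0.5, two-sided, with p-values adjusted over all 11869 genes.

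**Figure D1:**
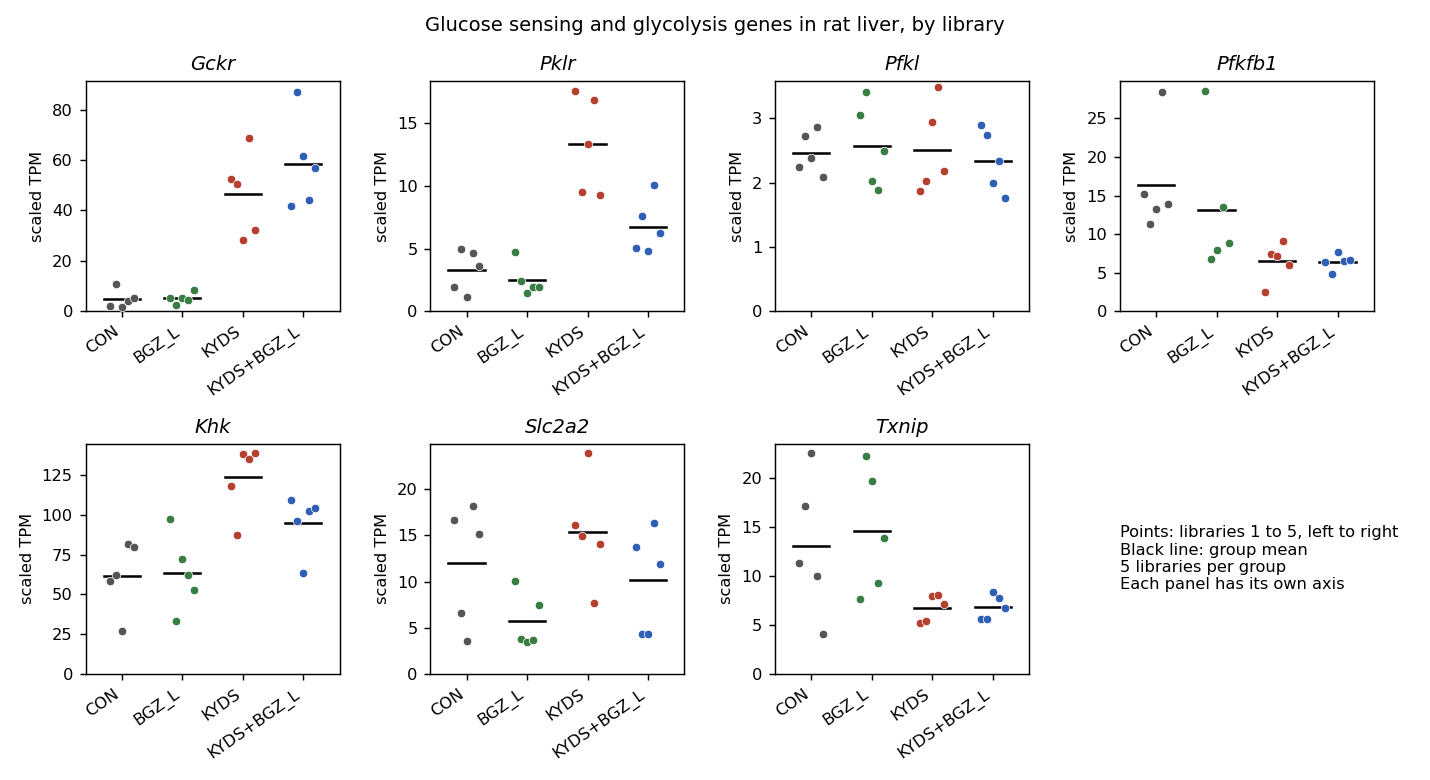
Scaled TPM (vertical axis, from 0, one scale per gene) of the 7 genes in each of the 20 libraries, by group; points are libraries and black lines group means. For Gckr the KYDS and KYDS+BGZ_L libraries are at 28.4 or more and the others at 10.9 or less, and for Pklr the KYDS libraries are between 9.26 and 17.6, against at most 4.93 in CON and BGZ_L.

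Gckr, the inhibitor of glucose phosphorylation, showed the largest difference of the 7. Its levels were 1.98, 10.9, 1.56, 3.95 and 5.25 scaled TPM in CON libraries 1 to 5 and 52.2, 50.4, 28.4, 68.6 and 32.2 in KYDS libraries 1 to 5. The groups did not overlap, and the highest CON value was that of CON 2, the library with the lowest scaling factor. The log2 fold change was 3.37 ± 0.40 (SE), a 10.3-fold difference (adjusted p = 0.00014). As deposited, before scaling, Gckr was 1.08 to 4.99 TPM in CON and 49.9 to 101 TPM in KYDS, which also did not overlap.

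Gckr was also higher with hydrocortisone among rats that all had BGZ_L. Levels were 5.14, 2.48, 5.33, 4.46 and 8.26 scaled TPM in BGZ_L libraries 1 to 5 and 41.8, 87.0, 61.4, 43.9 and 56.8 in KYDS+BGZ_L libraries 1 to 5. Every library with both agents was above every library with BGZ_L alone. The log2 fold change in KYDS+BGZ_L against BGZ_L was 3.41 ± 0.40 (adjusted p = 4.4e-05). The interaction of the agents, which asks whether the hydrocortisone difference changed with BGZ_L, was 0.05 ± 0.57 log2 (95% interval -1.14 to 1.23), so a difference of up to about 1 log2 in either direction could not be told from none.

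Pklr encodes the pyruvate kinase of liver and red cells. Its levels were 1.93, 4.93, 1.14, 4.64 and 3.60 scaled TPM in CON libraries 1 to 5 and 17.6, 9.52, 13.4, 16.9 and 9.26 in KYDS libraries 1 to 5. Again the groups did not overlap, and the log2 fold change was 1.97 ± 0.34, or 3.93-fold (adjusted p = 0.0030). In BGZ_L libraries 1 to 5 the levels were 4.73, 2.41, 1.42, 1.94 and 1.91, and in KYDS+BGZ_L 5.03, 7.59, 4.83, 10.1 and 6.23. These groups were also apart, although by little, since the highest BGZ_L value was 4.73 and the lowest KYDS+BGZ_L value 4.83. Their difference was 1.33 ± 0.34 log2 (adjusted p = 0.013).

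Pklr was the member with the largest difference between the 2 hydrocortisone groups. It was lower in KYDS+BGZ_L than in KYDS by -0.93 ± 0.34 log2 (95% interval -1.64 to -0.22), with an unadjusted limma p of 0.0129 and an adjusted p of 0.94, which does not pass. The interaction was -0.65 ± 0.48 log2 (adjusted p = 1.00). Of the other pyruvate kinase gene Pkm, found in most other tissues, the mean was 2.79 ± 1.95 (SD) scaled TPM in CON and 1.32 ± 0.583 (SD) in KYDS. The difference was -0.71 ± 0.37 (SE) log2 (limma, adjusted p = 0.24). The ratio of Pklr to Pkm within a library was log2 of (Pklr + 0.5)/(Pkm + 0.5) on the deposited values, without scaling between libraries. The added 0.5 weighs more where deposited values are low, so the ratio still depends in part on library scale. This ratio was 2.86 higher in KYDS than in CON and 2.32 higher in KYDS+BGZ_L than in BGZ_L. In neither comparison did the libraries overlap (exact permutation p = 0.00794, adjusted 0.0317 over 16 such tests, for each). No lower p is possible with 5 libraries a group.

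**Figure D2:**
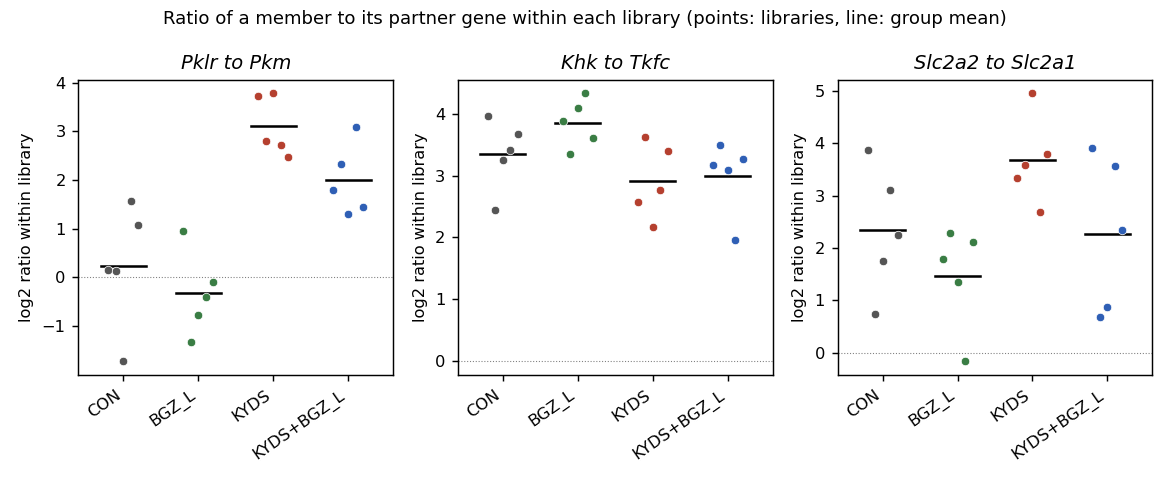
Log2 ratio of a gene to a partner gene within each library (vertical axis) for 3 pairs, by group; points are libraries and lines group means. The ratio of Pklr to Pkm is 2.47 or more in KYDS and at most 1.57 in CON.

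Khk phosphorylates fructose to fructose 1-phosphate, and was the most abundant of the 7 genes in every group. Levels were 58.2, 62.4, 27.3, 81.8 and 80.0 scaled TPM in CON libraries 1 to 5 and 118, 87.4, 139, 135 and 139 in KYDS libraries 1 to 5. The lowest KYDS library lay just above the highest CON library. The difference was 1.07 ± 0.31 log2, or 2.10-fold (adjusted p = 0.047). This call was close to the threshold, and leaving out any 1 of 13 libraries ended it (adjusted p from 0.0518 to 0.106, log2 fold change from 0.80 to 1.10). These were CON 1, 2 and 3, BGZ_L 4 and 5, KYDS 1, 3, 4 and 5, and KYDS+BGZ_L 1, 2, 4 and 5. With BGZ_L in both groups, Khk differed by 0.64 ± 0.31 log2 (adjusted p = 0.16), and the groups overlapped.

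Tkfc, whose enzyme works further down the fructose route, was higher in both comparisons, with log2 fold changes of 1.60 ± 0.41 (adjusted p = 0.030) and 1.59 ± 0.41 (adjusted p = 0.013). The ratio of Khk to Tkfc was lower in KYDS+BGZ_L than in BGZ_L, by -0.85 (exact permutation p = 0.0159, adjusted 0.0423). It was -0.44 in KYDS against CON (exact permutation test, adjusted p = 0.392). The first of these did not pass with a constant of 0.1 (adjusted p = 0.0508) or 1 (adjusted p = 0.0907) in the ratio, nor in 8 of 10 tests without 1 library (highest adjusted p = 0.0726).

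Pfkfb1 encodes the liver form of the enzyme that makes and degrades fructose 2,6-bisphosphate, and was the member that fell. CON libraries 1 to 5 had 15.2, 11.3, 13.2, 28.5 and 13.9 scaled TPM, and KYDS libraries 1 to 5 had 2.45, 7.44, 7.21, 9.14 and 6.03. The groups did not overlap, and CON 4 stood above the rest of its group. The log2 fold change was -1.31 ± 0.36 (adjusted p = 0.039). In KYDS+BGZ_L against BGZ_L it was -0.79 ± 0.36 (adjusted p = 0.14). BGZ_L libraries ranged from 6.79 to 28.6 and overlapped the 4.87 to 7.70 of KYDS+BGZ_L.

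The Pfkfb1 call depended on single libraries and on the scaling. Without any 1 of CON 1, 2, 3 or 4, KYDS 1, 2, 3 or 5, or KYDS+BGZ_L 5, the adjusted p was between 0.0508 and 0.0884. On the values as deposited, with no scaling, the log2 fold change was -0.04 (adjusted p = 0.96). The sister gene Pfkfb4, better known from testis and tumour cells, was lower in both hydrocortisone comparisons, by -2.62 ± 0.51 (adjusted p = 0.0087) and -2.87 ± 0.51 log2 (adjusted p = 0.0023). The ratio of Pfkfb1 to Pfkfb3 differed by 0.14 in KYDS against CON (exact permutation p = 0.802, adjusted 0.849) with a mean of Pfkfb3 of at most 0.617 scaled TPM in any group.

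Pfkl was the steadiest of the 7 after scaling. Its group means were 2.46 ± 0.324 (SD, n = 5) scaled TPM in CON, 2.57 ± 0.656 in BGZ_L, 2.50 ± 0.691 in KYDS and 2.34 ± 0.483 in KYDS+BGZ_L. The log2 fold change was -0.00 ± 0.20 in KYDS against CON (95% interval -0.43 to 0.42, adjusted p = 1.00) and -0.10 ± 0.20 in KYDS+BGZ_L against BGZ_L (adjusted p = 0.76). Without scaling, Pfkl was higher in KYDS by 1.09 ± 0.40 (adjusted p = 0.029), where the median of all genes was also higher, by 1.03. The ratio of Pfkl to Pfkm, the muscle form, was 0.72 higher in KYDS than in CON (exact permutation p = 0.0159, adjusted 0.0423). With a constant of 0.1 instead of 0.5 in that ratio, the adjusted p was 0.323, and 8 of 10 tests without 1 library did not pass (highest adjusted p = 0.0907). Pfkm had means of 0.299 to 0.406 scaled TPM, below the constant. As deposited, Pfkl had a mean of 1.91 TPM in CON and 4.20 TPM in KYDS, so this ratio can move with library scale. The part of library scale in it was not tested.

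Slc2a2 and Txnip varied widely among libraries. Slc2a2 was 16.7, 6.57, 3.54, 18.2 and 15.2 scaled TPM in CON libraries 1 to 5 and 16.1, 15.0, 23.9, 7.67 and 14.1 in KYDS libraries 1 to 5, with a log2 fold change of 0.48 ± 0.47 (95% interval -0.50 to 1.45, adjusted p = 0.56). It was 3.45 to 10.1 in BGZ_L and 4.29 to 16.3 in KYDS+BGZ_L libraries (0.71 ± 0.47, adjusted p = 0.31). In both comparisons the groups overlapped. With no scaling Slc2a2 was higher in KYDS than in CON, by 1.74 ± 0.65 (adjusted p = 0.031). The ratio of Slc2a2 to Slc2a1, the transporter GLUT1 of most other cells, was 1.33 higher in KYDS than in CON (exact permutation p = 0.0873, adjusted 0.175).

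Txnip was 11.3, 17.1, 22.5, 9.97 and 4.07 scaled TPM in CON libraries 1 to 5 and 5.16, 5.39, 7.97, 8.05 and 7.15 in KYDS libraries 1 to 5. Only CON 5 was below the KYDS values. Its log2 fold change was -0.73 ± 0.36 (adjusted p = 0.22), and without CON 5 it was -1.07 (adjusted p = 0.047). In KYDS+BGZ_L against BGZ_L it was -0.95 ± 0.36 (adjusted p = 0.071), with 7.60 to 22.2 in BGZ_L and 5.55 to 8.30 in KYDS+BGZ_L. Leaving out BGZ_L 1, CON 3 or CON 5 brought that adjusted p to between 0.0313 and 0.0469. With no scaling, the log2 fold change in KYDS against CON was 0.55 (adjusted p = 0.35), of opposite sign. The ratio of Txnip to its relative Arrdc4 differed by -0.12 in KYDS against CON (exact permutation p = 0.802, adjusted 0.849). Arrdc4 was low, with means of 0.225 to 0.473 scaled TPM. Under 3 other settings the difference in this ratio ran from -0.73 to 0.08.

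KYDS+BGZ_L against BGZ_L asks for the hydrocortisone difference in rats that all had BGZ_L. Gckr and Pklr were higher, none of the 7 was lower, and the other 5 did not pass. In this comparison 8.8% of all genes were higher and 8.55% lower. The median log2 fold change was 0.64 over the 7 genes and 0.06 over all. This comparison shares no library with KYDS against CON.

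**Figure D3:**
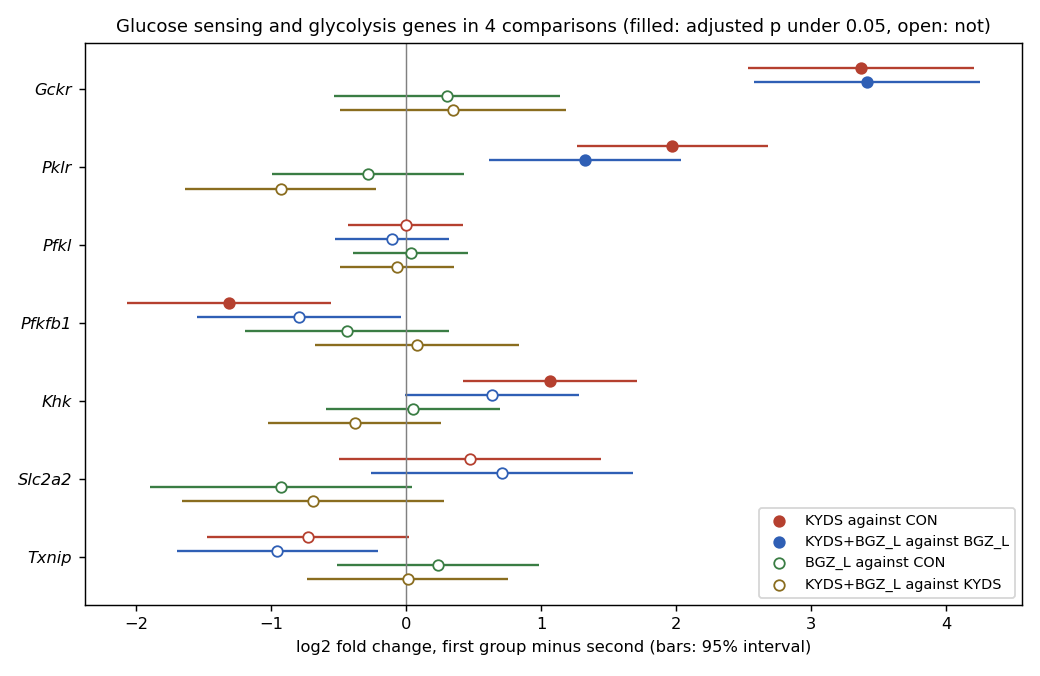
Log2 fold change (horizontal axis) of the 7 genes in 4 comparisons, with 95% intervals from limma; filled points passed an adjusted p of 0.05 and open points did not. Gckr lies at 3.37 and 3.41 in the hydrocortisone comparisons, and none of the 7 is filled in either comparison of BGZ_L.

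BGZ_L against CON and KYDS+BGZ_L against KYDS ask what BGZ_L changed without and with hydrocortisone. None of the 7 genes passed limma in either comparison, against 0% and 0.126% of all genes. At an unadjusted p under 0.05, 0 of the 7 were found in BGZ_L against CON, where 714 genes were, and 1 (Pklr) in KYDS+BGZ_L against KYDS, where 406 were. Slc2a2 had the largest BGZ_L difference without hydrocortisone, from a mean of 12.0 ± 6.55 (SD) scaled TPM in CON to 5.67 ± 2.96 (SD) in BGZ_L. This was -0.92 ± 0.47 (SE) log2 (limma, adjusted p = 0.83). The 95% interval of Gckr was -0.53 to 1.14 in BGZ_L against CON and -0.49 to 1.18 in KYDS+BGZ_L against KYDS. For the interaction, 0 of the 7 passed limma (0.0253% of all genes did), and 0 of the 7 had an unadjusted p under 0.05, as 446 of all genes did.

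KYDS+BGZ_L against CON shares libraries with the comparisons above. Here Gckr was higher by 3.72 ± 0.40 log2 (adjusted p = 2.4e-05) and Pfkfb1 lower by -1.23 ± 0.36 (adjusted p = 0.035), while 5.79% of all genes were higher and 5.7% lower. Pklr was 1.05 ± 0.34 with an adjusted p of 0.051, and the other 4 did not pass. Without any 1 of CON 1, CON 4 or KYDS+BGZ_L 1, 2, 4 or 5 the Pfkfb1 call was lost (adjusted p between 0.0567 and 0.0821). It was also lost under 4 of 13 other settings, and with no scaling its log2 fold change was -0.36 (adjusted p = 0.65). Without any 1 of CON 2, CON 4, BGZ_L 1, BGZ_L 3 or KYDS 2 the Pklr difference passed (adjusted p between 0.0355 and 0.0498), and without CON 5 that of Txnip passed (-1.06, adjusted p = 0.037).

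The order of levels among the 7 genes differed between groups, as TPM, which is per length, allows. In CON the order of means was Khk, Pfkfb1, Txnip, Slc2a2, Gckr, Pklr and Pfkl. Across libraries each neighbouring pair in that order overlapped, Khk and Pfkfb1 only between 27.3 and 28.5 scaled TPM. Within every CON library Khk was above Pfkfb1, while the order of each other neighbouring pair varied between CON libraries. In KYDS the order was Khk, Gckr, Slc2a2, Pklr, Txnip, Pfkfb1 and Pfkl. There Gckr, with 28.4 scaled TPM or more, lay above every Slc2a2 value and below every Khk value. Slc2a2 and Pklr overlapped, Pklr was above every Txnip value, and the last 3 genes overlapped with their neighbours across libraries. Within every KYDS library, however, Pfkfb1 was above Pfkl. In BGZ_L Gckr had a mean of 5.14 ± 2.08 (SD) scaled TPM, and in KYDS+BGZ_L, where it followed Khk in the order, 58.2 ± 18.1 (SD).

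**Figure D4:**
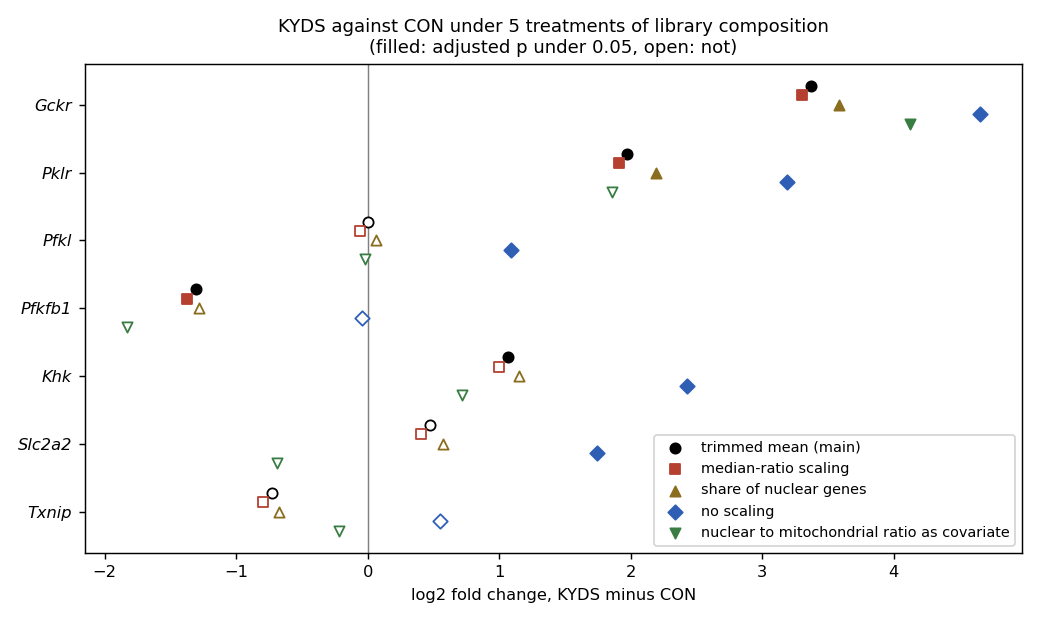
Log2 fold change of the 7 genes in KYDS against CON (horizontal axis) under 5 ways of treating library composition; filled symbols passed an adjusted p of 0.05. Gckr is filled under all 5, between 3.30 and 4.65, while Pfkfb1 runs from -1.83 to -0.04.

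The split of all calls depended on the scaling. Of all genes, 386 were higher and 358 lower in KYDS against CON, and 5867 and 66 with no scaling. Between KYDS+BGZ_L and BGZ_L the numbers were 1044 and 1015, and 1809 and 233 with no scaling. Because the mitochondrial share moved with hydrocortisone, the log2 ratio of nuclear to mitochondrial signal was also put into the fit. Gckr then had a log2 fold change of 4.12 ± 0.44 in KYDS against CON (adjusted p = 2.2e-04) and 3.83 ± 0.38 in KYDS+BGZ_L against BGZ_L (adjusted p = 1.2e-05). Pklr had 1.86 ± 0.44 (adjusted p = 0.11) and 1.26 ± 0.38 (adjusted p = 0.055), similar in size and no longer past the threshold. Khk dropped to 0.72 ± 0.38 (adjusted p = 0.74) and Slc2a2 changed sign, to -0.69 ± 0.43 (adjusted p = 0.82), in KYDS against CON. Without CON 2 and BGZ_L 3, Gckr was 3.73 ± 0.37 (adjusted p = 1.1e-04) and Pklr 2.16 ± 0.34 (adjusted p = 0.0041) in KYDS against CON. Of the 7 hepatocyte markers, 2 (Ttr and Tf) were higher in KYDS against CON and 4 (Alb, Ttr, Serpina1 and Asgr1) in KYDS+BGZ_L against BGZ_L, and none was lower. The part of the hepatocyte signal in the differences of Gckr, Pklr and Khk was not tested.

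Markers of other liver cells were present at lower levels. Group means of the summed levels in scaled TPM were 37.2 to 122 for 6 Kupffer cell genes, 42.9 to 48.0 for 5 endothelial genes, 15.1 to 19.5 for 6 stellate cell genes, 5.74 to 15.1 for 5 cholangiocyte genes, 0.862 to 1.37 for 5 lymphocyte genes, at most 17.9 for 3 neutrophil genes and 1021 to 1957 for 4 erythroid genes. The Kupffer cell mean of 122 was that of BGZ_L, where the median was 47.5 and the highest library had 393. Pklr is also the pyruvate kinase of red cells. Of the 3 erythroid genes tested (Hba-a1, Hbb and Alas2), 0 passed limma in either hydrocortisone comparison. Their log2 fold changes lay between 0.31 and 0.58 in KYDS against CON and between -0.35 and 0.38 in KYDS+BGZ_L against BGZ_L. The part of red cells in the Pklr difference was not tested. Of the 6 Kupffer cell genes, 1 (Cd163) passed as higher in each comparison. The log2 fold changes of the other 5 (Clec4f, Marco, Vsig4, Cd5l and Cd68), which did not pass, lay between 0.07 and 1.27 in KYDS against CON and between -0.97 and 0.21 in KYDS+BGZ_L against BGZ_L. Of the 6 stellate cell genes, 1 (Pdgfrb) passed as higher in each. The other 5 (Lrat, Reln, Des, Dcn and Rgs5) did not pass, with log2 fold changes between -0.73 and -0.33 in KYDS against CON and between -0.96 and -0.05 in KYDS+BGZ_L against BGZ_L. S100a8 and S100a9 of neutrophils were higher in KYDS+BGZ_L against BGZ_L. No listed gene was at 0 in all 20 libraries.

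The wider pathway list held 69 genes of uptake, hexose phosphorylation, glycolysis, fructose metabolism, pyruvate fate, ChREBP partners and targets, and upstream regulators. It had 66 with an entry and 55 that were tested. In KYDS against CON 4 of the 55 were higher and 1 was lower, where 3.25% of all genes were higher and 3.02% lower, and the median log2 fold change was 0.12 against 0.05 over all genes. In KYDS+BGZ_L against BGZ_L 10 were higher and 2 lower, where 8.8% and 8.55% of all genes were, with a median of 0.14 against 0.06. None of the 55 passed limma in KYDS+BGZ_L against KYDS or in BGZ_L against CON.

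The pathway genes higher in KYDS against CON were G6pc, Ldha, Srebf1 and Tkfc. G6pc, the last enzyme of glucose release, had a median of 0 scaled TPM in CON, where the highest value was 22.7, and ranged from 26.5 to 194 in KYDS. Ldha, a lactate dehydrogenase subunit, was 19.7 to 32.6 in CON and 60.9 to 348 in KYDS (2.61 ± 0.42 log2, adjusted p = 0.0020). Srebf1, the insulin-responsive regulator of fat synthesis, was 2.04 ± 0.49 log2 higher (adjusted p = 0.022). In the glycolysis core, Ldha was the 1 gene of 11 tested that passed.

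Between KYDS+BGZ_L and BGZ_L, G6pc (3.83 ± 0.98, adjusted p = 0.013), the fasting hormone gene Fgf21 (2.42 ± 0.44, adjusted p = 0.0024), Srebf1 (1.81 ± 0.49, adjusted p = 0.016) and the liver factor Foxa2 (1.72 ± 0.38, adjusted p = 0.0064) rose most on the log2 scale. Elovl6, a fatty acid elongase and ChREBP target, was listed at 0 in all 5 KYDS+BGZ_L libraries and ranged from 0 to 5.33 scaled TPM in BGZ_L. Among 12 tested ChREBP partners and targets, 4 were higher and 1 lower in this comparison, beside 8.8% and 8.55% of all genes, and 1 was higher and 0 lower in KYDS against CON, beside 3.25% and 3.02%. Mlx, the partner of ChREBP, had a log2 fold change of 0.14 ± 0.28 in KYDS against CON (adjusted p = 0.79) and 0.06 ± 0.28 in KYDS+BGZ_L against BGZ_L (adjusted p = 0.91).

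The genes whose pattern over the 20 libraries was most like that of Gckr were Kynu (Pearson's r = 0.94 of log2 values), Arhgef19 (0.93) and Tymp (0.92). Those most like the mean of the 7 standardised genes were Ypel3 (0.85), Pbxip1 (0.84), Tnks1bp1 (0.84), Trpc4ap (0.83) and Slco2a1 (0.83). These values are descriptions without a test, and the libraries share the group difference of hydrocortisone.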

How the data were processed

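RNA of 20 rat livers was measured by RNA-seq, and groups, replicate numbers and doses come from the labels. Per the labels, libraries were made with a TruSeq kit and only read 1 of each pair was analysed. The deposited table was read as TPM, since its values have 2 decimals, sum to 914342.78 to 983962.23 per library and, in 150 short genes, have a lowest value that falls with gene span in RefSeq GRCr8 (Spearman's rho -0.405). How the authors computed them is not stated. The aligner and counter were not given in the sources used here. Submitters' processing notes list mouse builds (GRCm38, mm10, GRCm39), but the gene identifiers are of rat, so the build is unknown. Read depth is unknown, and no interval or floor that needs it was computed.

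From the deposited TPM, factors were computed as an unweighted trimmed mean of log ratios, with 30% of ratios and 5% of levels trimmed. Genes that reached 0.5 scaled TPM in 5 or more libraries were fitted as log2 of the scaled TPM plus 0.5 in 1 limma model of 4 group means, with limma's trend and robust options and 16 residual degrees of freedom. Comparisons were contrasts of it, two-sided, with Benjamini-Hochberg adjustment over all 11869 genes and a threshold of 0.05. Fold changes on this scale understate differences of genes with low values. Ratios of 2 genes within a library came from the deposited values and were compared by exact permutation tests, two-sided, adjusted over 16 tests (8 pairs in the 2 hydrocortisone comparisons). Some genes and 1 of these pairs are not reported here. Low partner levels make a ratio depend on the added constant and, as the constant is added to unscaled values, on library scale. The script was tested on simulated data.

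The members, lists, partner genes and processing were chosen with earlier results of these data known. Named pathway genes were, in each hydrocortisone comparison, the 4 highest and 4 lowest fold changes among those that passed, and the partners. Genes most like Gckr or the members' mean were taken by Pearson's r. Other pathway genes and marker genes were described after their values were seen where named singly. The names Mlxipl, Hkdc1, Gapdh, Pgd, Ahsg, Timd4 and Pecam1 had no value to use and were not analysed here. The labels do not say that a replicate number links rats across groups. Alternatives were other scalings, filters, constants and priors, a covariate, a replicate block, fits of only the groups compared, summed entries and libraries left out. The software was R 4.3.3 (limma 3.58.1, data.table version 1.17.8), with figures by matplotlib 3.10.9 and pandas 2.3.3 under Python 3.11.15.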

Additional observations from a re-analysis of the deposited data

Results flagged for a closer look

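Of 28 sets of 5 libraries (7 genes in 4 groups), 1 held a value far from the rest by Dixon's test, where chance alone marks about 1 in 20. It was Pfkfb1 in CON, with 28.5 scaled TPM in CON 4, where the next highest CON library had 15.2. Without CON 4 the log2 fold change of Pfkfb1 in KYDS against CON was -1.09 (limma, adjusted p = 0.064), against -1.31 with it (adjusted p = 0.039).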

How the results depend on the processing

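Gckr kept its direction and its call in both hydrocortisone comparisons under all 13 other settings and in all 20 fits without 1 library, with log2 fold changes of 3.10 to 4.65 in KYDS against CON and 3.21 to 4.18 in KYDS+BGZ_L against BGZ_L. Pklr kept its direction in all of these. Its call was lost with the nuclear to mitochondrial covariate in both comparisons and, in KYDS+BGZ_L against BGZ_L, also with values as a share of nuclear genes (limma, adjusted p = 0.052). The calls of Khk and Pfkfb1 in KYDS against CON were each lost under 7 of 13 settings. With the values as deposited and no scaling, 5867 genes were higher and 66 lower in KYDS against CON, against 386 and 358 with scaling, and Pfkl turned from -0.00 to 1.09 and passed.

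The number of the 7 genes called in KYDS against CON, 4 with all libraries, was 2 with values as a share of nuclear genes, with no filter, with the replicate block, without CON 2 and BGZ_L 3, and in a fit of only the groups compared, and was 1 with the covariate, 3 with median-ratio scaling and 5 with no scaling. Leaving out 1 library gave 2 to 5, beside 226 to 1075 of all genes, and median-ratio scaling called 667 of all genes. In KYDS+BGZ_L against BGZ_L the number was 2, and 1 with values as a share of nuclear genes and with the covariate. With 1 library left out it was 2 to 3, beside 1101 to 2517 of all genes. In KYDS+BGZ_L against CON the number was 2, and 1 with values as a share of nuclear genes, with no filter and with the covariate. In this order, 151 of 13696, 878 of 19797 and 89 of 11869 genes passed. The number was 3 with no scaling, with the stricter filter and without CON 2 and BGZ_L 3. Under these, 1653 of 12168, 1398 of 8793 and 765 of 11974 genes passed. With 1 library left out the number was 1 to 3, beside 388 to 1611 of all genes. The filters and fits with fewer libraries also change which genes enter the adjustment, and other causes were not tested.

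Same-numbered libraries were not clearly alike: of their 30 correlations, 7 were above 0.1 (-0.459 to 0.335), and 4 of 20 libraries correlated best with their own number. Such correlations cannot exclude a pairing of the rats. With the replicate block 557 genes passed in KYDS against CON, 744 without it, and Pfkfb1 and Khk had adjusted p-values of 0.053 and 0.055. Over all genes, KYDS against CON gave 92 calls (75 higher, 17 lower) with values as a share of nuclear genes, 23 (19 and 4) with the covariate, 256 without CON 2 and BGZ_L 3, 257 with only the groups compared and 367 with no filter. KYDS+BGZ_L against BGZ_L gave 576 (357 and 219) with values as a share of nuclear genes and 669 (302 and 367) with the covariate, against 2059. Among the ratios, Pklr to Pkm failed in 4 of 10 exact permutation tests without 1 library in each comparison (highest adjusted p = 0.0508). The log2 difference in these 10 tests was 2.37 to 3.19 in KYDS against CON and 2.04 to 2.64 in KYDS+BGZ_L against BGZ_L. Leaving out a library cannot create an overlap between groups that did not overlap. With 4 against 5 libraries the exact p takes only coarse steps, so a failed test need not mean a smaller difference. The unknown depth limits statements on low genes such as Pfkm and Pfkfb3.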

Other observations

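The ratio of Pklr to Pkm within a library was also compared for BGZ_L, after its values were seen. It differed by -1.11 log2 in KYDS+BGZ_L against KYDS, with overlapping libraries (exact permutation p = 0.0476, and 0.254 after adjustment over 16 added tests, which does not pass). In BGZ_L against CON it differed by -0.56 (exact permutation p = 0.429, adjusted 0.762).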
